A study of Homo sapiens with 12 samples.

Results

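The arrays described here are the 4 of the human lung adenocarcinoma line H1693, out of 12 arrays in the series. H1693 is an established non-small cell lung cancer line, described by the submitters as a line that overexpresses MARK2. In 2 arrays the cells carried a lentivirus with a short hairpin RNA that targets MARK2 (knockdown arrays), and in the other 2 with the empty pLKO lentiviral vector, which carries no hairpin (control arrays). The members were found by their titles, and all genes on the array were analysed, each through its brightest probe set. The other 8 arrays hold the same knockdown and control, with 2 arrays each, in the lines H1993 and H1650. The study's text names each pair of arrays as biological replicates. A p-value here rests on the spread between such replicates, estimated together over the pairs of all 3 lines. No non-targeting hairpin was among the groups, and the hairpin's sequence, how many were used and the time after transduction are not stated in the sources used here. The study asked which genes change when MARK2 is lowered in lines that have much of it.

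MARK2 is a serine/threonine kinase of cell polarity that phosphorylates tau-like proteins and so loosens their hold on microtubules. The changes in H1693 are described below in the order of stress, amino acid supply, cell cycle and secreted factors. In the integrated stress response, kinases that sense misfolded protein, missing amino acids, haem loss or viral RNA phosphorylate the initiation factor eIF2. Most translation then slows while that of the transcription factor ATF4 goes on, and ATF4, with partners such as CHOP (DDIT3) and C/EBP proteins, switches on genes for amino acid uptake, amino acid synthesis and tRNA charging. In the cell cycle, E2F factors drive genes of DNA replication, and MYBL2 and FOXM1 drive genes of mitosis.

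The values are log2 signals, so a difference of 1 is a 2-fold difference, and every change given is knockdown minus control on that scale, with its standard error (SE) and the Benjamini-Hochberg adjusted p of limma's two-sided test over 16205 genes. A gene is said to have risen or fallen where that p is under 0.05. MARK2 itself read 7.76 and 7.97 in the control arrays and 6.62 and 6.57 in the knockdown arrays. The groups did not overlap, and MARK2 fell by 1.27 (SE 0.16, adjusted p = 0.000258), against -0.58 on its dimmer probe set. In H1993 MARK2 changed by -2.35. The paralogues MARK3 and MARK4 were at 0.08 and 0.07 and did not pass the threshold. MARK1 fell by 0.47 (SE 0.13, adjusted p = 0.0206), but its other probe set was at -0.01 and its adjusted p was 0.163 without control replicate 1, 0.0736 without knockdown replicate 1 and 0.0964 without knockdown replicate 2.

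In H1693 2763 genes rose (17.1% of those tested) and 2583 fell (15.9%), and the median change of all genes was -0.02. These shares are the background for every count of listed genes that rose or fell in H1693. At 2-fold or more, 249 rose (1.54%) and 155 fell (0.956%). Both knockdown arrays lay above both control arrays in 32.9% of genes and below both in 36.1%. The number that rose was 1838 without control replicate 2. Medians of the 4 arrays ran from 7.29 to 7.32, and 15289 to 15398 genes per array reached a log2 signal of 5. The spread was estimated from all 12 arrays, among them those of H1650, in which GAPDH probes at the 3' end exceeded those at the 5' end by 2.28 to 6.87 (log2), against -0.05 to 0.02 in H1693. The same difference for ACTB probes was 0.53 to 0.57 in the control and 0.34 to 0.41 in the knockdown arrays of H1693, with no overlap, and its part in the results was not tested. With the 8 arrays of H1693 and H1993 alone, 5855 genes were called, against 5346 with all 12.

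The arrays carried the markers of an epithelial line. All 12 epithelial markers reached a signal of 5 on all 4 arrays, with EPCAM, an epithelial adhesion molecule, at 13.20 and 13.23 in the control arrays and 13.23 and 13.40 in the knockdown arrays. Of these 5 rose and 1 fell, the keratin KRT7, by 0.33 (SE 0.07, adjusted p = 0.0062); none fell without control replicate 1. The epithelial cadherin CDH1 rose by 0.72 (SE 0.07, adjusted p = 4.63e-05), and the tight junction claudins CLDN4 and CLDN7 rose by 1.08 and 0.64. Among markers of other cells, 3 of 9 leukocyte and 5 of 6 endothelial markers reached a signal of 5 on all 4 arrays. Below it on all 4 were 3 leukocyte markers and 1 endothelial marker. The leukocyte antigen PTPRC stayed below the signal floor, as did decorin (DCN) of the fibroblast list. Of 8 leukocyte markers tested none rose and 1 fell, the macrophage glycoprotein CD68 at -0.30 (adjusted p = 0.0322; its other probe set 0.08, and the adjusted p 0.0805 to 0.154 without any 1 of the 4 arrays), and of 6 endothelial markers none passed. The summed linear signal of the leukocyte list was 561 to 586 in the control and 502 to 532 in the knockdown arrays. The fibroblast list, on which VIM and other genes read brightly in this line, had 9 of 10 members at the floor or above on all 4 arrays, and its summed signal was 11474 to 11758 in the control and 14156 to 14671 in the knockdown arrays. There 2 of 9 tested rose (1 without any 1 of the 4 arrays): the fibrillar collagen COL3A1 rose by 0.62 (SE 0.21, adjusted p = 0.047) and the collagen-binding lumican LUM by 0.95; their part in the matrix changes below was not tested. Without any 1 of the 4 arrays the adjusted p of COL3A1 was 0.133 to 0.161.

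Promoter sequences of the groups that moved together are shown first, with short motifs found in them. RefSeq promoters of GRCh38.p14, each 300 bases from 250 before to 50 after a gene start, were searched on both strands for 3 motifs. TGATGNAA, the core bound by ATF4 with a C/EBP partner, was in 3.62% of 35116 promoters, or in 4.46% of their 27305 genes. Among genes tested that have a promoter in the table, 3.25% of 12980 had it. It was present in the promoters of 5 of 17 genes of the ATF4 and CHOP list, namely 4 of 13 that rose and 1 of 4 that did not pass. It was also in those of 6 of 14 amino acid transporters that rose and 0 of 7 that did not pass, and of 5 of 8 tRNA synthetases that rose and 2 of 7 that did not pass. Of the serine and one-carbon genes 0 of 2 that rose, 0 of 4 that fell and 1 of 7 that did not pass had it. TTTGAA, the CHR element of mitotic genes, was in the promoters of 18.2% of all 27305 genes and 14.9% of genes tested. It was in 19 of 24 genes of mitotic kinases, kinesins and spindle (79.2%) and 11 of 22 of kinetochore and checkpoint. It was also in 8 of 21 amino acid transporters (38.1%). GGCGGGA, an E2F-like motif, was in the promoters of 18.0% of all 27305 genes and 26.7% of genes tested. It was in 13 of 22 genes of origin licensing and 14 of 24 of replication polymerases (59.1% and 58.3%). TTTGAA was in 1 and 3 of these. GGCGGGA was likewise in 9 of 17 genes of the ATF4 and CHOP list (52.9%), 7 of them among the 13 that rose, and in 10 of 16 p53 targets (62.5%). A match is a description of the letters in this window and shows no binding. The windows below give the motif in capitals with up to 20 bases on each side, 5′ to 3′ along the gene's strand, with the reverse complement in capitals where the match is on the other strand.

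The first set holds TGATGNAA, in genes that rose.
CHAC1 promoter, chr15:40953242-40953289, plus strand: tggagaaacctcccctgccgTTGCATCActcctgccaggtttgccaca
CEBPG promoter, chr19:33374051-33374098, plus strand: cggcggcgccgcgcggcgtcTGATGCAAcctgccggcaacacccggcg
ASNS promoter, chr7:97872449-97872496, minus strand: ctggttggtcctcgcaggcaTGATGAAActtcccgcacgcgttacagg
BCAT1 promoter, chr12:24949122-24949169, minus strand: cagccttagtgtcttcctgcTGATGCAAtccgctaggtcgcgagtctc
AARS1 promoter, chr16:70289666-70289713, minus strand: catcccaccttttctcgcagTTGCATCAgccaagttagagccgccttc
SLC1A5 promoter, chr19:46784884-46784931, minus strand: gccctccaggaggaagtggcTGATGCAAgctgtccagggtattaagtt

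The second set holds TTTGAA, in genes of mitosis that fell.
KIF4A promoter, chrX:70290050-70290095, plus strand: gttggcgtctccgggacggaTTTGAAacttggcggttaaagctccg
ASPM promoter, chr1:197146757-197146802, minus strand: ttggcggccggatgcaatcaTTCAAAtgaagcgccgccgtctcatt
KIF11 promoter, chr10:92593082-92593127, plus strand: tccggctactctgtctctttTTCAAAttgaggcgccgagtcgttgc
PLK1 promoter, chr16:23678840-23678885, plus strand: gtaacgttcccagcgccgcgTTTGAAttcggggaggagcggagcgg

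The third set holds GGCGGGA, in genes of DNA replication that fell.
GINS2 promoter, chr16:85688960-85689006, minus strand: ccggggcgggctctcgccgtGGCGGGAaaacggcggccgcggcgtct
PCNA promoter, chr20:5126656-5126702, minus strand: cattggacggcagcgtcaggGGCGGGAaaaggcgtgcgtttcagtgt
RRM1 promoter, chr11:4094443-4094489, plus strand: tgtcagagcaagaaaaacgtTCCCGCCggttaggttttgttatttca

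Genes of the ATF4 and CHOP programme were higher in the knockdown arrays of H1693. Of 19 tested, 13 rose and none fell (background 17.1% and 15.9%), 6 of them at least 2-fold, and their median change was 0.74 against -0.02 over all genes. The stress cytokine GDF15 led the list, with signals of 9.65 and 9.64 in the control arrays and 11.67 and 11.52 in the knockdown arrays. It rose by 1.95 (SE 0.11, adjusted p = 3.28e-06), or 3.87-fold, and its further probe sets were at 0.52 to 2.65. The pseudokinase TRIB3, a target of CHOP that damps AKT signalling, read 11.28 and 11.23 in the control arrays and 12.82 and 12.85 in the knockdown arrays. It rose by 1.58 (SE 0.08, adjusted p = 1.7e-06), against 2.04 on its dimmer probe set. The glutathione-degrading enzyme CHAC1, whose promoter window is printed above, read 9.65 and 9.70 in the control arrays and 10.86 and 10.79 in the knockdown arrays. It rose by 1.15 (SE 0.07, adjusted p = 4.8e-06) against 1.55 on its dimmer probe set. In each of these genes both knockdown arrays lay above both control arrays.

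The mTORC1 inhibitors among the targets rose as well. DDIT4 (REDD1) read 9.96 and 9.89 in the control arrays and 11.15 and 11.18 in the knockdown arrays, a rise of 1.25 (SE 0.07, adjusted p = 3.38e-06). SESN2, a leucine sensor, read 10.23 and 10.24 in the control arrays and 11.28 and 11.21 in the knockdown arrays, a rise of 1.01 (SE 0.08, adjusted p = 2.01e-05). Neither gene's groups overlapped. Changes of the transcription factors of the programme varied in size. DDIT3, which encodes CHOP, read 10.48 and 10.47 in the control arrays and 11.22 and 11.40 in the knockdown arrays and rose by 0.84 (SE 0.13, adjusted p = 0.000939), and ATF3, which feeds back on the response, read 10.33 and 10.23 in the control arrays and 10.72 and 10.78 in the knockdown arrays and rose by 0.47 (SE 0.08, adjusted p = 0.00197). JDP2, a bZIP partner of these factors, rose by 1.03 (SE 0.16, adjusted p = 0.000779). For ATF4, whose protein is set mostly by translation, the arrays read 13.65 and 13.65 in the control arrays and 13.86 and 13.91 in the knockdown arrays, so that its change of 0.24 did not pass (SE 0.08, adjusted p = 0.0524), although the groups did not overlap. It passed under 7 of 16 alternative settings. The secreted members STC2 and FGF21 differed: STC2, a calcium-regulating glycoprotein, rose by 0.89 (SE 0.12, adjusted p = 0.000407), and the hormone FGF21 was at -0.14 (adjusted p = 0.226).

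**Figure D1:**
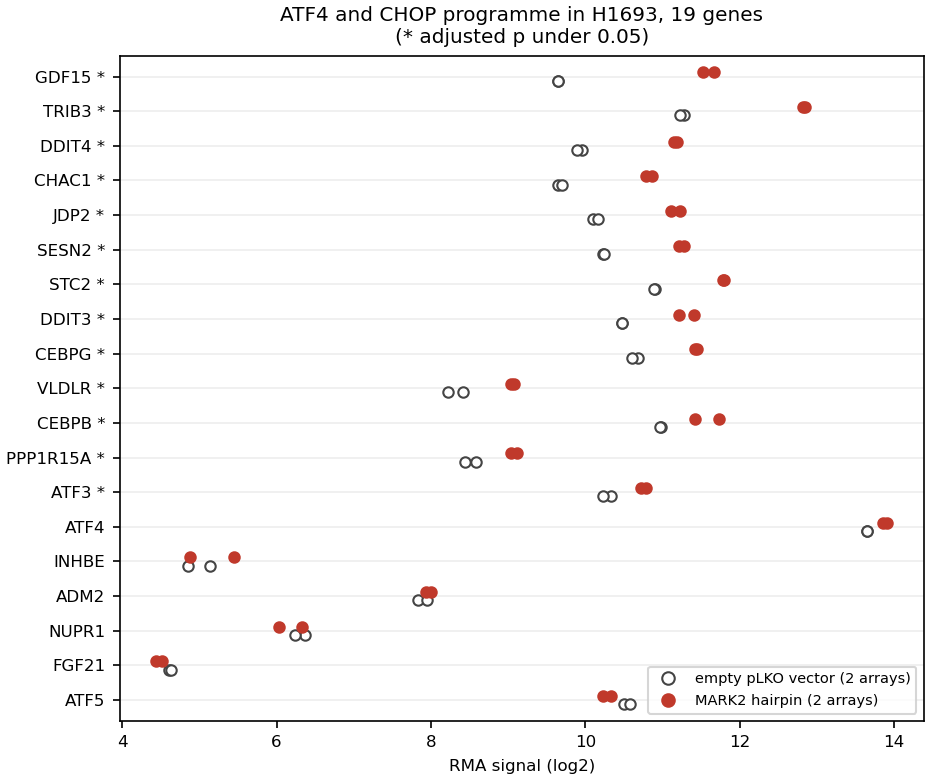
Log2 RMA signal (x axis) of the ATF4 and CHOP programme genes tested (y axis) in the 2 control arrays (open points) and the 2 knockdown arrays (filled points) of H1693, ordered by change, with an asterisk where the adjusted p is under 0.05. The 13 genes marked lie to the right of their control points, from GDF15 at a change of 1.95 to ATF3 at 0.47.

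Of 13 eIF2 kinases, eIF2B subunits and eIF2 phosphatase genes, which act upstream of ATF4, 5 fell (38.5%, against 15.9% of all genes). The 2 that rose were 15.4%, against 17.1% of all genes, and the median was -0.14. None rose without control replicate 2 or knockdown replicate 2, 1 rose without knockdown replicate 1, and 3 fell without replicate 1 of either group. The double-stranded RNA sensor EIF2AK2 (PKR) fell by 0.47 (SE 0.08, adjusted p = 0.00138), and EIF2B3, a subunit of the eIF2B exchange factor, fell by 0.54 (SE 0.06, adjusted p = 0.000195). Of 23 genes of the unfolded protein response of the endoplasmic reticulum, 11 rose and 2 fell (median 0.24), none of them 2-fold, and 1 fell without either control replicate or without knockdown replicate 1. DNAJB9, a co-chaperone of the lumen, rose by 0.85 (SE 0.07, adjusted p = 1.72e-05). HERPUD1, which takes part in disposal of misfolded protein, read 11.62 and 11.60 in the control arrays and 12.46 and 12.40 in the knockdown arrays and rose by 0.82 (SE 0.06, adjusted p = 1.17e-05). The main lumenal chaperone HSPA5 (BiP) read 13.65 and 13.66 in the control arrays and 13.90 and 13.89 in the knockdown arrays, a rise of 0.24 (SE 0.07, adjusted p = 0.0188); without any 1 of the 4 arrays its adjusted p was 0.0762 to 0.0877. The chaperone cofactor SDF2L1 fell by 0.84 (SE 0.07, adjusted p = 2.06e-05).

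Heat shock and chaperone genes, some of them targets of heat shock factor 1, went the other way. Of 19 genes on the heat shock and cytosolic chaperone list, 14 fell and 1 rose, with a median of -0.37. The list also holds the mitochondrial HSPE1. Without control replicate 1 or without knockdown replicate 1, 9 fell. The HSP90 cochaperone FKBP4 fell by 0.62 (SE 0.07, adjusted p = 0.000194), the inducible HSP70 gene HSPA1B by 0.57 (SE 0.11, adjusted p = 0.00238), and the mitochondrial chaperonin partner HSPE1 by 0.59 (SE 0.06, adjusted p = 9.26e-05). These falls were each under 2-fold. HSPB8, a small heat shock protein that works with BAG3 in selective autophagy, was the one member that rose. It read 6.63 and 6.32 in the control arrays and 7.93 and 7.93 in the knockdown arrays, a rise of 1.46 (SE 0.09, adjusted p = 4.99e-06), with no overlap of the groups.

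Immediate early genes, which answer growth factors and stress kinases within minutes, were mostly higher. Of 16 AP-1 and immediate early genes, 9 rose and 1 fell (median 0.34). FOS read 11.99 and 11.97 in the control arrays and 13.17 and 13.15 in the knockdown arrays and rose by 1.18 (SE 0.06, adjusted p = 2.51e-06), and JUN read 9.49 and 9.40 in the control arrays and 10.49 and 10.65 in the knockdown arrays and rose by 1.13 (SE 0.09, adjusted p = 1.67e-05). FOS and JUN form the classical AP-1 dimer. FOSB rose by 1.42 (SE 0.08, adjusted p = 3.59e-06), but stood at -0.09 on its dimmer probe set. DUSP1, a phosphatase that switches off MAP kinases, rose by 0.87 (SE 0.09, adjusted p = 6.91e-05). FOSL1 (FRA-1), an AP-1 member associated with ERK signalling, was the one that fell, by 1.03 (SE 0.07, adjusted p = 6.67e-06), from 10.14 and 10.14 to 9.11 and 9.12.

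The other stress lists were mixed. Of 24 genes of NRF2 and antioxidant defence, 6 rose and 2 fell (median -0.01; 1 fell without any 1 of the 4 arrays), with SLC7A11 counted here and among the transporters. GCLC and GCLM, the catalytic and modifier subunits of the enzyme that starts glutathione synthesis, changed in opposite directions, by 0.46 and -0.40 (adjusted p = 0.00291 and 0.00569), and haem oxygenase HMOX1 was at -0.14 (adjusted p = 0.433). The steroid-metabolising reductase AKR1C3 rose by 2.02 (SE 0.09, adjusted p = 1.35e-06) but stood at 0.16 on its dimmer probe set. Of 21 p53 targets, 7 rose and 4 fell (median -0.01), and 2 fell without replicate 1 of either group. The p53-inducible TP53INP1 rose by 1.16 and the death receptor TNFRSF10B, also a CHOP target, by 1.13 (SE 0.08, adjusted p = 1.02e-05). The CDK inhibitor CDKN1A (p21), the best known p53 target, read 11.37 and 11.26 in the control arrays and 11.26 and 11.23 in the knockdown arrays and was at -0.07 (adjusted p = 0.505). Of 19 hypoxia targets, 4 rose and 9 fell (median -0.22), with the vasodilator peptide ADM at -1.19 (SE 0.08, adjusted p = 6.46e-06) and VEGFA at 0.81 (SE 0.09, adjusted p = 9.65e-05). Of 9 metallothionein and zinc genes, 2 rose (1 without control replicate 2 or knockdown replicate 1) and 1 fell, the zinc exporter SLC30A1, by 0.66 (SE 0.07, adjusted p = 0.000132). Over all stress lists 55 of 163 genes rose and 38 fell, and without control replicate 1 or knockdown replicate 1 the falls numbered 24 and 25.

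Amino acid transporters were higher in the knockdown arrays. Of 27 tested, 15 rose and 1 fell, with a median of 0.36. The glutamate transporter SLC1A3 read 7.44 and 7.18 in the control arrays and 8.56 and 8.63 in the knockdown arrays and rose by 1.28 (SE 0.12, adjusted p = 5.36e-05), while its other probe sets ran from 0.06 to 0.74. The glycine transporter SLC6A9 rose by 1.22 (SE 0.09, adjusted p = 1.45e-05), with other probe sets from 0.16 to 1.63. SLC7A11, the cystine importer of system xc-, read 10.28 and 10.27 in the control arrays and 11.45 and 11.46 in the knockdown arrays. It rose by 1.18 (SE 0.07, adjusted p = 5.36e-06), or 2.27-fold, with no overlap of the groups. SLC7A5, which imports leucine and other large neutral amino acids, rose by 0.52 (SE 0.07, adjusted p = 0.000554), and SLC3A2, the heavy chain that both SLC7A11 and SLC7A5 need to reach the membrane, rose by 0.59 (SE 0.09, adjusted p = 0.00109). Carriers of neutral amino acids and glutamate followed: SLC1A4 rose by 0.64, SLC1A1 by 0.80 and the aromatic amino acid carrier SLC16A10 by 0.61. The member that fell was the cationic amino acid transporter SLC7A2, at -0.37 (SE 0.07, adjusted p = 0.00272).

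Of the enzymes of amino acid synthesis and breakdown, 28% rose and 20% fell, against 17.1% and 15.9% of all genes. Asparagine synthetase ASNS, a classical ATF4 target with its motif printed above, read 12.88 and 12.94 in the control arrays and 13.66 and 13.69 in the knockdown arrays. It rose by 0.77 (SE 0.06, adjusted p = 1.69e-05), and its further probe sets were at 0.77 and 0.96. The branched-chain aminotransferase BCAT1 read 10.91 and 10.84 in the control arrays and 12.13 and 12.13 in the knockdown arrays and rose by 1.26 (SE 0.15, adjusted p = 0.000202). The proline enzyme PYCR1 rose by 0.82 (SE 0.08, adjusted p = 4.48e-05). Of the 25 genes of this list, 7 rose and 5 fell, with a median of -0.17. The rises numbered 5 and 4 without control replicates 1 and 2 and 6 and 5 without knockdown replicates 1 and 2, and the falls 1 and 3, and 2 and 1. Among the 5 falls was the cysteine dioxygenase CDO1, at -0.50 (SE 0.12, adjusted p = 0.00987); its adjusted p was 0.0851 without control replicate 1 and 0.0753 without knockdown replicate 2.

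Of the serine and one-carbon genes, 25% rose and 25% fell, against 17.1% and 15.9% of all genes. PHGDH, the first enzyme of serine synthesis, read 11.14 and 11.07 in the control arrays and 11.92 and 11.93 in the knockdown arrays and rose by 0.82 (SE 0.11, adjusted p = 0.000426). PSAT1, the next enzyme, was at 0.41 and did not pass (SE 0.15, adjusted p = 0.0698), but passed with the probe set that was brightest in H1693 (adjusted p = 0.00176) and under 5 other settings. The mitochondrial serine hydroxymethyltransferase SHMT2 rose by 0.51 (SE 0.08, adjusted p = 0.00102), while its cytosolic counterpart SHMT1 fell by 0.62 (SE 0.07, adjusted p = 0.000108). SFXN1, which carries serine into mitochondria, fell by 0.73 (SE 0.08, adjusted p = 8.89e-05). In all 4 of 16 genes rose and 4 fell (median -0.11), and 2 fell without control replicate 1.

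The enzymes that charge tRNAs with amino acids were higher for some amino acids. Of 19 cytosolic aminoacyl-tRNA synthetases, 9 rose and 1 fell (median 0.16). WARS1, for tryptophan, read 12.11 and 12.06 in the control arrays and 13.10 and 13.11 in the knockdown arrays and rose by 1.02 (SE 0.07, adjusted p = 8.83e-06), with other probe sets from 0.05 to 1.31. AARS1 (alanine) and CARS1 (cysteine) each rose by 0.60, with adjusted p of 0.00193 and 0.000218. MARS1 (methionine), GARS1 (glycine) and SARS1 (serine) rose by 0.53, 0.50 and 0.48. FARSB, a subunit of the phenylalanine enzyme, was the one that fell, by 0.41 (SE 0.06, adjusted p = 0.00105). Of 25 genes of amino acid sensing by mTORC1, 5 rose (20%, against 17.1% of all genes) and 3 fell (12%, against 15.9%; median 0.10), with the Rag GTPase RRAGC at 0.53 (SE 0.06, adjusted p = 0.000182) and TSC1, a brake on mTORC1, at 0.81 (SE 0.07, adjusted p = 2.12e-05) but with other probe sets from -0.09 to 0.20. In that list 1 gene fell without either control replicate and none without knockdown replicate 1. Over the amino acid lists, 40 of 112 genes rose and 14 fell. The falls numbered 6 and 9 without control replicates 1 and 2, and 7 and 8 without knockdown replicates 1 and 2. GATM, which makes the creatine precursor from arginine and glycine and is on none of the lists, read 10.36 and 10.35 in the control arrays and 8.22 and 7.95 in the knockdown arrays. It fell by 2.27 (SE 0.10, adjusted p = 1.3e-06), and its further probe sets were at -2.32 and -2.27.

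**Figure D2:**
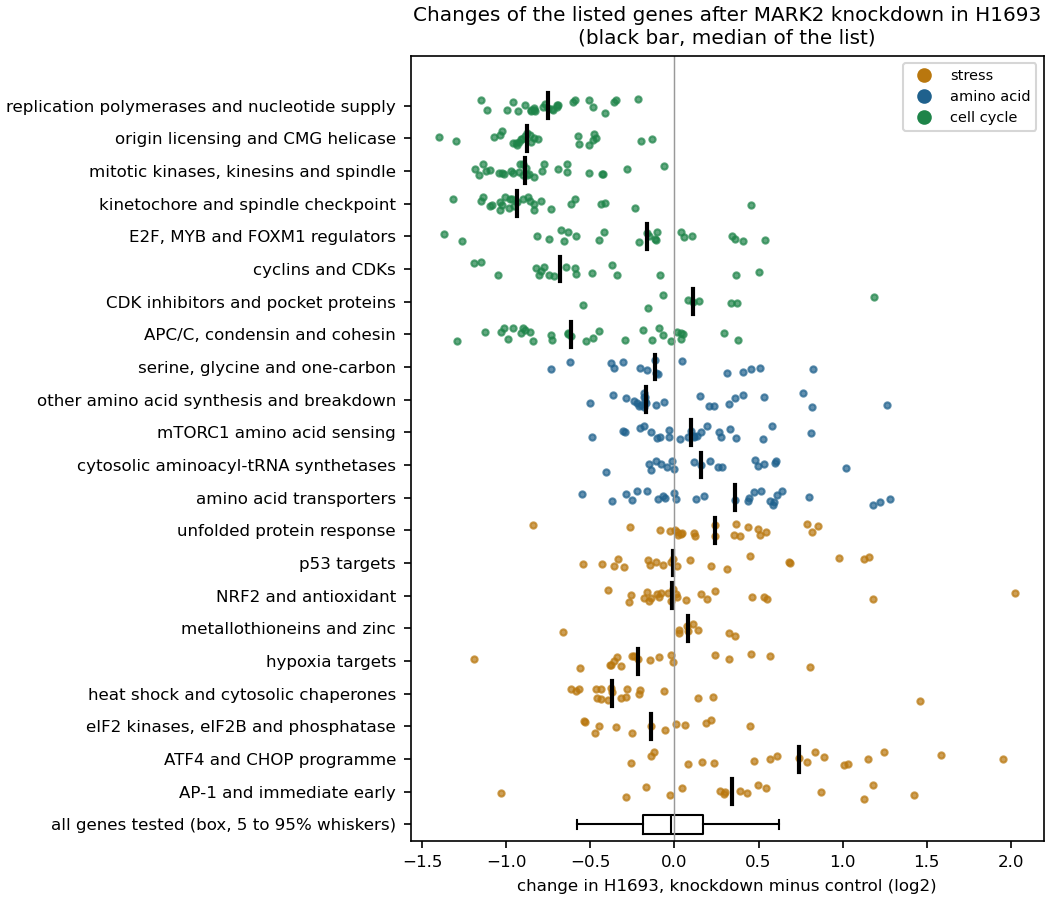
Change in H1693 (x axis, knockdown minus control, log2) of every tested gene of the stress, amino acid and cell cycle lists, with 1 row per list, a bar at its median and, at the bottom, a box of all 16205 genes with whiskers from the 5th to the 95th percentile. The lists of licensing, replication, kinetochore and mitotic kinase genes have medians from -0.94 to -0.75, with 1 kinetochore gene, MAD1L1, to the right of 0, and the ATF4 and CHOP programme lies furthest right of the stress lists, with a median of 0.74.

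Cell cycle genes were lower in the knockdown arrays: of 188 tested, 146 fell and 10 rose, with a median of -0.74. The rises numbered 5 without control replicate 2 or knockdown replicate 2. In bulk RNA, fewer cycling cells and less of these RNAs per cell cannot be told apart. Of 18 cyclins, CDKs and CDC25 phosphatases, 15 fell and 2 rose (median -0.68). Cyclin A2 (CCNA2), active in S phase and G2, read 11.47 and 11.40 in the control arrays and 10.27 and 10.21 in the knockdown arrays and fell by 1.19 (SE 0.07, adjusted p = 2.92e-06). Cyclin E2 (CCNE2), which acts at entry to S phase, read 9.04 and 8.99 in the control arrays and 7.94 and 7.78 in the knockdown arrays and fell by 1.15 (SE 0.12, adjusted p = 8.93e-05). The mitotic kinase CDK1 read 11.43 and 11.46 in the control arrays and 10.34 and 10.46 in the knockdown arrays and fell by 1.05 (SE 0.09, adjusted p = 3.43e-05). In all of these the groups lay apart. Those that rose act in G1: cyclin D1 (CCND1) rose by 0.37 (SE 0.06, adjusted p = 0.000892) and its partner CDK6 by 0.50 (SE 0.07, adjusted p = 0.000435), with a probe set of CDK6 at -0.33.

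Among 9 CDK inhibitors and pocket proteins, 2 rose and 1 fell, and 1 rose without replicate 2 of either group. CDKN1C (p57), an inhibitor of G1 kinases, read 8.41 and 8.43 in the control arrays and 9.62 and 9.59 in the knockdown arrays and rose by 1.19 (SE 0.08, adjusted p = 7.23e-06), with other probe sets at 0.84 and 1.19. CDKN1B (p27) was at 0.11 (adjusted p = 0.655). RBL1 (p107), a pocket protein that is itself an E2F target, fell by 0.55 (SE 0.11, adjusted p = 0.00416). Of 23 E2F, MYB and FOXM1 regulators, 10 fell (43.5%) and 4 rose (17.4%, against 17.1% of all genes), with a median of -0.16. The rises were fewer without any 1 of the 4 arrays. FOXM1, which drives genes of G2 and mitosis, read 10.40 and 10.34 in the control arrays and 8.99 and 9.01 in the knockdown arrays and fell by 1.37 (SE 0.06, adjusted p = 1.17e-06). E2F8, an atypical repressor that peaks in S phase, fell by 1.26 (SE 0.15, adjusted p = 0.000185), the activator E2F1 fell by 0.45 (SE 0.07, adjusted p = 0.000815), and MYBL2 fell by 0.68 (SE 0.12, adjusted p = 0.00217). MYC was at 0.11 (adjusted p = 0.402), between 11.37 and 11.57 on the 4 arrays.

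Genes that build the replication machinery fell as a group. Of 25 genes of origin licensing and the CMG helicase, 23 fell and none rose (median -0.88). TICRR (treslin), which lets CDKs fire origins, had the largest fall of the list, -1.40 (SE 0.12, adjusted p = 2.62e-05). The helicase subunit MCM4 read 11.51 and 11.36 in the control arrays and 10.01 and 10.26 in the knockdown arrays and fell by 1.30 (SE 0.12, adjusted p = 3.76e-05). The loading factor CDC6 fell by 1.08 and the GINS subunit GINS2 by 1.04. ORC2 and ORC4, subunits of the origin recognition complex, were the members that did not pass, at -0.20 and -0.13. All 27 genes of replication polymerases and nucleotide supply that were tested fell (median -0.75), from -0.22 for the single-strand binding subunit RPA2 to -1.15 for POLE2, a subunit of polymerase epsilon. RRM1, the large subunit of ribonucleotide reductase, read 11.05 and 11.00 in the control arrays and 9.95 and 9.87 in the knockdown arrays and fell by 1.11 (SE 0.06, adjusted p = 3.39e-06).

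Mitotic genes fell by similar amounts. Of 27 kinetochore and spindle checkpoint genes, 25 fell and none rose (median -0.94), and 9 of these fell at least 2-fold. The others were MIS12 at -0.23 and MAD1L1 at 0.45 (adjusted p = 0.0759 and 0.312). SPC25, of the NDC80 complex that grips microtubules, read 9.92 and 9.97 in the control arrays and 8.60 and 8.65 in the knockdown arrays and fell by 1.31 (SE 0.08, adjusted p = 5.58e-06). The checkpoint protein MAD2L1 fell by 1.15 (SE 0.17, adjusted p = 0.000653) and the checkpoint kinase TTK (MPS1) by 1.10 (SE 0.06, adjusted p = 2.85e-06). Of 28 mitotic kinase, kinesin and spindle genes, 26 fell and none rose (median -0.89). The chromokinesin KIF4A read 10.29 and 10.27 in the control arrays and 9.06 and 9.12 in the knockdown arrays and fell by 1.19 (SE 0.06, adjusted p = 2.62e-06), and the spindle pole protein ASPM and the spindle motor KIF11 fell by 1.16 and 1.04. Of 31 members of the anaphase-promoting complex, condensin and cohesin, 19 fell (61.3%) and 2 rose (6.45%, against 17.1% of all genes). Their median was -0.62, and fewer rose without any 1 of the 4 arrays. The condensin II subunit NCAPD3 fell by 1.29 (SE 0.11, adjusted p = 2.81e-05) and separase (ESPL1) by 1.13, with another ESPL1 probe set at -0.25. The APC/C scaffold subunit ANAPC2 and the cohesin subunit STAG1 rose, by 0.37 and 0.29, while the other probe sets of STAG1 were at -0.26 and -0.22.

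Of 206 secreted factors tested, 58 rose (28.2%, against 17.1% of all genes) and 32 fell (15.5%, against 15.9% of all genes). Their median change was 0.02, and 11 rose and 8 fell at least 2-fold. These lists do not hold every secreted product. Among those left out, GDF15 and EDIL3 rose by 1.95 and 2.81, and NMU and SFRP5 fell by 1.62 and 2.03. FGFBP1, a carrier that frees FGFs from the matrix, had the largest fall of all 16205 genes. It read 11.69 and 11.64 in the control arrays and 8.96 and 8.86 in the knockdown arrays and fell by 2.76 (SE 0.07, adjusted p = 9.73e-08), to 14.8% of the control signal. Among other growth factors, VEGFC, which drives lymphatic vessel growth, read 6.43 and 6.46 in the control arrays and 8.24 and 8.35 in the knockdown arrays and rose by 1.85 (SE 0.06, adjusted p = 3.21e-07), or 3.61-fold. The platelet-derived growth factors PDGFC and PDGFD rose by 1.23 and 1.24, with adjusted p of 3.15e-06 and 5.5e-05. The placental growth factor PGF fell by 0.62 (SE 0.11, adjusted p = 0.00158). Of the 27 FGF, VEGF, PDGF and other growth factor genes, 9 rose and 9 fell (median -0.01).

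Ligands of the EGF receptor family changed in opposite directions. Of 9 tested, 4 rose and 1 fell; AREG was not analysed here. HBEGF, which binds EGFR and ERBB4, read 12.02 and 11.91 in the control arrays and 12.95 and 13.02 in the knockdown arrays and rose by 1.02 (SE 0.08, adjusted p = 1.18e-05). NRG4, an ERBB4 ligand, rose by 0.94 (SE 0.09, adjusted p = 5.9e-05) and stood at 0.19 on its dimmer probe set, and TGFA, an EGFR ligand, by 0.43 (SE 0.09, adjusted p = 0.00398). NRG1, which binds ERBB3 and ERBB4, read 12.37 and 12.31 in the control arrays and 10.92 and 10.88 in the knockdown arrays and fell by 1.44 (SE 0.06, adjusted p = 1.12e-06), with other probe sets from -1.49 to -0.34. In HBEGF and NRG1 the groups did not overlap.

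In the IGF system, 3 binding proteins that hold IGFs in the extracellular space fell at least 2-fold. IGFBP6 read 7.62 and 7.51 in the control arrays and 6.08 and 6.19 in the knockdown arrays and fell by 1.43 (SE 0.15, adjusted p = 9.93e-05). IGFBP4 fell by 1.30 (SE 0.12, adjusted p = 3.75e-05) and IGFBP2 by 1.02 (SE 0.12, adjusted p = 0.000217). IGFBP7 rose by 0.63 (SE 0.10, adjusted p = 0.00083), with other probe sets from -0.11 to 0.16, and was at 0.16 (adjusted p = 0.763) with the probe set brightest in H1693 and 0.39 (adjusted p = 0.081) with the mean of its probe sets. PAPPA, a protease that cleaves IGFBP4, rose by 0.60 (SE 0.09, adjusted p = 0.00065), with other probe sets up to 0.65, and was at 0.19 (adjusted p = 0.334) with the probe set brightest in H1693. In all 2 of 9 rose and 3 fell (median -0.23).

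Of 26 TGF-beta, BMP and activin ligands and antagonists, 6 rose and 2 fell (median 0.06). Leaving out knockdown replicate 1 gave 3 rises and 3 falls, knockdown replicate 2 gave no fall, and control replicate 2 gave 1. INHBB, the activin B subunit, read 4.43 and 5.09 in the control arrays and 6.12 and 6.32 in the knockdown arrays and rose by 1.46 (SE 0.17, adjusted p = 0.000171). Control replicate 1 was below the log2 signal of 5, where differences are compressed. BMP4 rose by 0.73 (SE 0.12, adjusted p = 0.00116), TGFB2 rose by 0.55 (SE 0.06, adjusted p = 0.000168) and TGFB1 fell by 0.42 (SE 0.12, adjusted p = 0.0248); without control replicate 2 and without knockdown replicate 2 the adjusted p of TGFB1 was 0.158 and 0.184. Among 18 WNT ligands and antagonists 5 rose and 1 fell. RSPO3, which amplifies WNT signals, read 5.58 and 5.28 in the control arrays and 6.69 and 6.80 in the knockdown arrays and rose by 1.31 (SE 0.20, adjusted p = 0.000711). WNT6 and WNT10A rose by 0.89 and 0.81, and the antagonist DKK1 fell by 0.32 (SE 0.06, adjusted p = 0.00278). SFRP5, a WNT antagonist that the list does not hold, fell by 2.03 and is described below among the largest falls.

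Of 32 cytokines and chemokines 4 rose (12.5%, against 17.1% of all genes) and none fell (median 0.04; 1 without control replicate 2); 8 rose with the mean of each gene's probe sets. The monocyte chemoattractant CCL2 read 4.71 and 4.57 in the control arrays and 5.55 and 5.53 in the knockdown arrays. It rose by 0.90 (SE 0.12, adjusted p = 0.000405), from control arrays below a signal of 5. CXCL2, IL15 and CXCL16 rose by 0.50, 0.49 and 0.41. The adjusted p of IL15 was 0.0929 without control replicate 1 and 0.0947 without knockdown replicate 1. The neutrophil chemokine CXCL8 was at 0.23 (adjusted p = 0.263; 0.00789 with the mean of its probe sets). Among 15 hormone and neuropeptide genes 1 rose and 4 fell. The neuropeptide galanin (GAL) read 10.59 and 10.51 in the control arrays and 8.65 and 8.55 in the knockdown arrays and fell by 1.96 (SE 0.08, adjusted p = 9.67e-07). The vasoconstrictor endothelin EDN1 fell by 0.85 (SE 0.06, adjusted p = 1.25e-05), and CALCB, a calcitonin gene-related peptide, rose by 1.26 (SE 0.12, adjusted p = 3.99e-05), although its other probe sets were between 0.07 and 0.26.

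Of 37 secreted proteases and inhibitors, 11 rose (29.7%) and 6 fell (16.2%, against 15.9% of all genes), with a median of -0.02. Both counts were lower without any 1 of the 4 arrays. The gelatinase MMP9 read 9.08 and 8.94 in the control arrays and 7.55 and 7.77 in the knockdown arrays and fell by 1.35 (SE 0.09, adjusted p = 8.91e-06). SLPI, an inhibitor of neutrophil elastase, read 7.89 and 7.85 in the control arrays and 9.50 and 9.52 in the knockdown arrays and rose by 1.64 (SE 0.06, adjusted p = 6.85e-07). SPINT1 and TFPI, inhibitors of serine proteases, rose by 0.79 and 0.84, and the metalloprotease inhibitor TIMP2 rose by 0.72. Of 33 matrix and matricellular genes, 16 rose and 6 fell (median 0.40), and 3 fell without control replicate 1 or knockdown replicate 2. Tenascin-C (TNC) read a mean of 4.06 in the control arrays and 5.95 and 6.03 in the knockdown arrays and rose by 1.93 (SE 0.09, adjusted p = 1.7e-06), but its controls were below the signal floor and its other probe sets ran from -0.32 to 0.81. The galectin-binding glycoprotein LGALS3BP read 9.98 and 9.99 in the control arrays and 11.84 and 11.74 in the knockdown arrays and rose by 1.81 (SE 0.10, adjusted p = 3.17e-06). Fibrillin FBN1 rose by 1.21 (SE 0.08, adjusted p = 7.22e-06), with probe sets down to 0.02, and POSTN, a matricellular protein, by 0.91 (SE 0.12, adjusted p = 0.000412). The basement membrane collagen COL4A2 read 10.49 and 10.52 in the control arrays and 9.39 and 9.49 in the knockdown arrays and fell by 1.06 (SE 0.08, adjusted p = 1.12e-05).

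**Figure D3:**
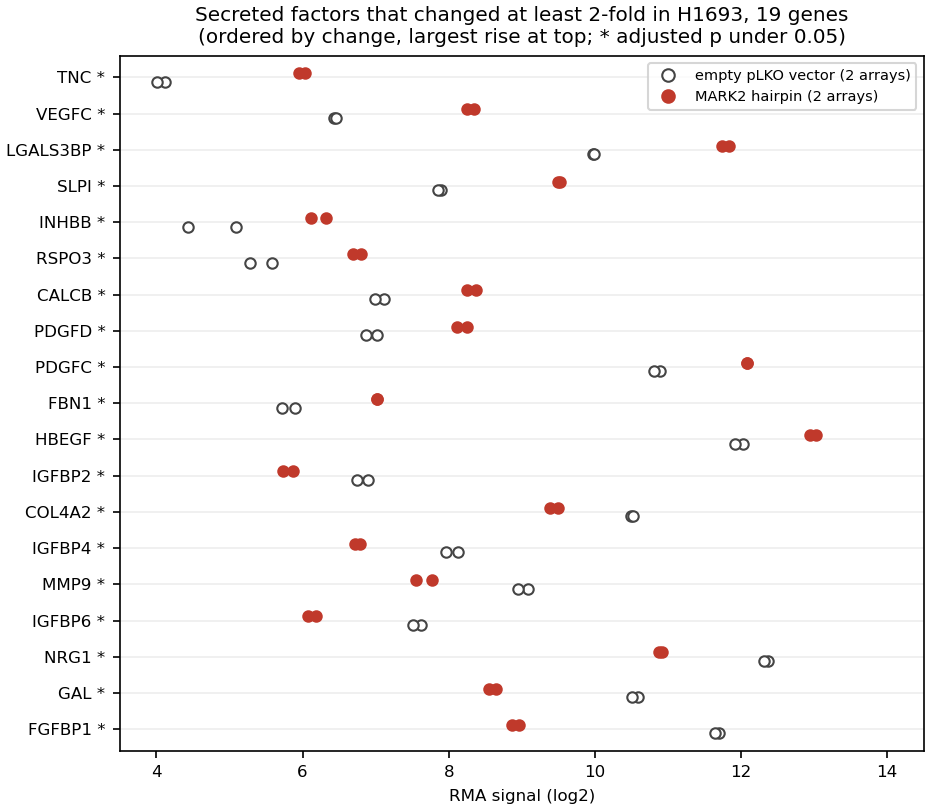
Log2 RMA signal (x axis) of the 19 listed secreted factors that changed at least 2-fold in H1693 (y axis), in the 2 control arrays (open points) and the 2 knockdown arrays (filled points), ordered by change. TNC, VEGFC and LGALS3BP at the top rose by 1.93, 1.85 and 1.81, and FGFBP1 at the bottom fell by 2.76.

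The largest changes in H1693 included genes outside these lists. MS4A15, a membrane protein expressed in lung, read 6.13 and 6.12 in the control arrays and 9.40 and 9.19 in the knockdown arrays. It rose by 3.17 (SE 0.14, adjusted p = 1.3e-06), or 8.98-fold, against 3.62 on its dimmer probe set. SYTL5, a Rab27 effector of vesicle traffic, rose by 3.17, against 0.55 on its dimmer probe set, from control arrays below a signal of 5. EDIL3, a secreted integrin ligand, read 7.79 and 7.72 in the control arrays and 10.56 and 10.58 in the knockdown arrays and rose by 2.81 (SE 0.15, adjusted p = 2.99e-06), with other probe sets from 0.81 to 2.94. AMIGO2, a leucine-rich adhesion molecule, rose by 2.71 (SE 0.07, adjusted p = 1.15e-07), with other probe sets from 0.08 to 2.58. The lysosomal membrane protein LAMP3 rose by 2.50 (SE 0.07, adjusted p = 1.73e-07) and the ubiquitin ligase TRIM2 by 2.24 (SE 0.09, adjusted p = 8.38e-07). RPRM (reprimo), a p53-inducible protein linked to G2 arrest, read 9.43 and 9.28 in the control arrays and 11.61 and 11.23 in the knockdown arrays and rose by 2.06 (SE 0.20, adjusted p = 5.99e-05). Both arrays of each group lay apart in all of these genes, which the rule for choosing them required. The remaining rises among the 15 largest were those of IFI44, THSD7A, MYRFL, LIPH, TMEM139, IL20RB, AKR1C3 and FAM3C, between 2.02 and 2.20. Of these, THSD7A rose from control arrays below a signal of 5.

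Among the largest falls, the ubiquitin ligase MARCHF4 read 9.77 and 9.47 in the control arrays and 7.06 and 7.07 in the knockdown arrays and fell by 2.56 (SE 0.11, adjusted p = 9.67e-07). The calcium-activated potassium channel KCNMA1 fell by 2.19 (SE 0.07, adjusted p = 2.23e-07), with other probe sets from -1.59 to -0.10. The melanocortin receptor MC5R read 9.67 and 9.41 in the control arrays and 7.38 and 7.41 in the knockdown arrays and fell by 2.14 (SE 0.13, adjusted p = 4.29e-06). SFRP5 read 8.12 and 8.08 in the control arrays and 6.04 and 6.10 in the knockdown arrays and fell by 2.03 (SE 0.12, adjusted p = 3.5e-06). The actin-associated protein TAGLN fell by 1.81 (SE 0.11, adjusted p = 4.09e-06), and its other probe sets were between -1.71 and -1.44. The neuropeptide neuromedin U (NMU) fell by 1.62 (SE 0.08, adjusted p = 1.46e-06), so that with GAL and FGFBP1 there were secreted products among the leading falls. PDE4A fell by 1.78 and DLEU2 fell by 1.69, but their other probe sets reached only -0.59 and -0.12. SERPINB7, DDIAS, CALHM4 and MFAP5 fell by between 1.54 and 1.73. The knockdown arrays of CALHM4 were below a signal of 5, and the other probe sets of MFAP5 were at -0.49 and -0.39.

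**Figure D4:**
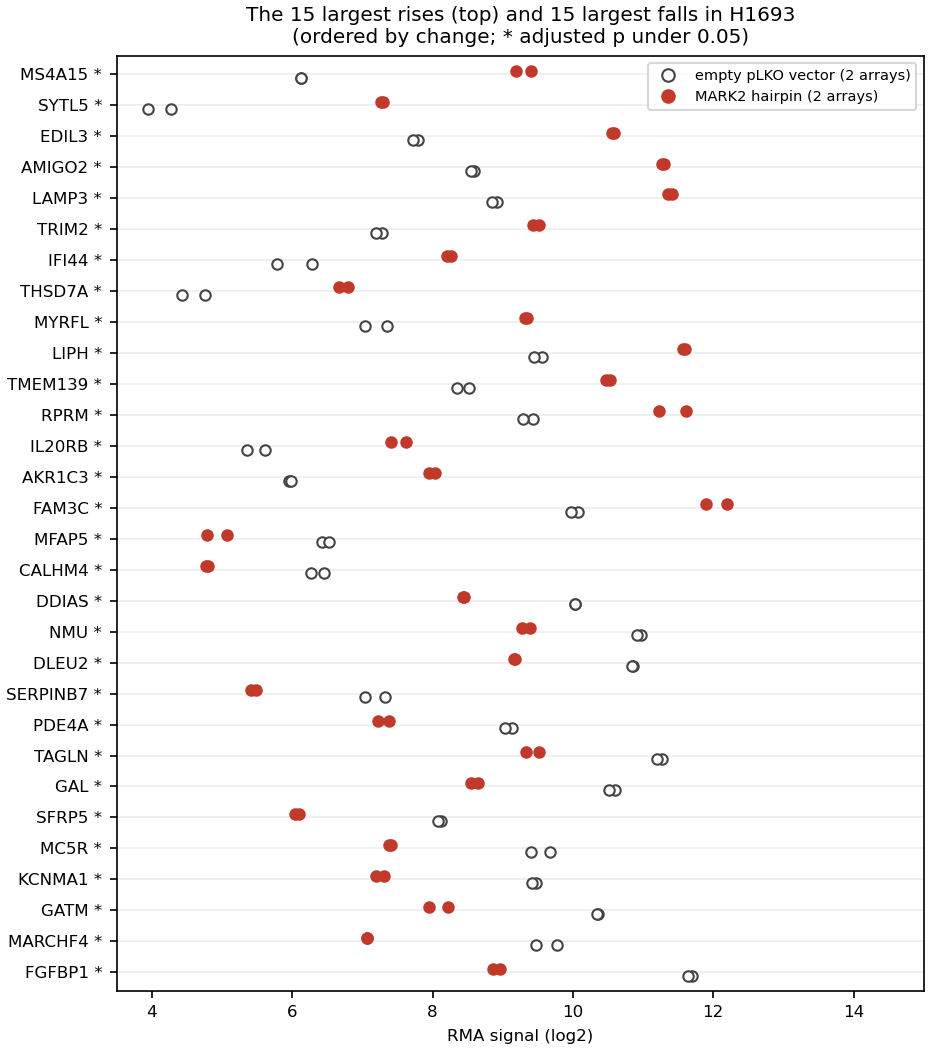
Log2 RMA signal (x axis) of the 15 genes with the largest rises and the 15 with the largest falls in H1693 (y axis), in the 2 control arrays (open points) and the 2 knockdown arrays (filled points). The rises run from FAM3C at 2.02 to MS4A15 at 3.17, the falls from MFAP5 at -1.54 to FGFBP1 at -2.76. Only called genes whose 2 groups did not overlap could be chosen.

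H1993, another lung cancer line with 2 knockdown and 2 empty vector arrays, had GAPDH 3' minus 5' signals of -0.12 to -0.06 and ACTB signals of 0.28 to 0.35 in the control and 0.39 to 0.42 in the knockdown arrays, and the change in each line rests on its own controls. The change differed between the 2 lines in 3577 genes (22.1% of those tested). Of all 16205 genes, 3064 rose and 2354 fell in H1993, and their median change there was 0.02. These are the background for every count of listed genes that rose or fell in H1993. For the ATF4 and CHOP programme, 3 of 19 genes rose and 2 fell in H1993, with a median of -0.06, and the change differed in 11 genes, all of them more positive in H1693. TRIB3 changed by 1.58 in H1693 and -0.30 in H1993, a difference of 1.88 (adjusted p = 9.95e-06), and GDF15 by 1.95 and -0.01, a difference of 1.96 (adjusted p = 4.3e-05). DDIT4 and DDIT3 were at -0.59 and -0.25 in H1993. SESN2 was at 1.01 and 0.86, and its difference of 0.15 (SE 0.12) did not pass (adjusted p = 0.423). Of 19 synthetases, 1 rose and 5 fell in H1993, and the change differed in 8, of which 7 were more positive in H1693, with WARS1 at -0.53 in H1993 (difference 1.55, adjusted p = 1.54e-05). ASNS, SLC7A11 and SHMT2 were at -0.12, -0.06 and -0.59 in H1993, with differences of 0.88, 1.24 and 1.10 (adjusted p = 0.000128, 6.22e-05 and 0.000194). PHGDH rose in both lines, by 0.82 and 0.72, with a difference of 0.10 (SE 0.16).

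Heat shock genes, of which 14 fell in H1693, had 3 rises and 1 fall in H1993 (median 0.01), and HSPA1B differed by -0.68 (adjusted p = 0.00958). JUN was at 1.13 in H1693 and -0.86 in H1993 (difference 1.98, adjusted p = 1.54e-05). Cell cycle genes fell in both lines and differed in size: of 25 licensing genes 23 fell in H1693 and 15 in H1993 (median -0.34), and the change differed in 17, all of them more negative in H1693. MCM4 changed by -1.30 and -0.33 (difference -0.97, adjusted p = 0.003). Of 27 kinetochore genes 22 fell in H1993 (median -0.46) and 12 differed. CCNE2 and CDC25A, a phosphatase of the G1/S switch, fell by 1.15 and 0.80 in H1693 and were at 0.02 and 0.62 in H1993 (differences -1.17 and -1.41, adjusted p = 0.00128 and 3.41e-05).

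Of 33 matrix and matricellular genes, 16 rose in H1693 and 16 in H1993, with medians of 0.40 and 0.35. In H1693 6 fell and in H1993 1 fell, and the change differed in 17. Several secreted factors moved in opposite directions in the 2 lines. FGFBP1 was at -2.76 in H1693 and 0.64 in H1993 (difference -3.39, adjusted p = 3.63e-07). INHBB was at 1.46 and -1.09 (difference 2.55, adjusted p = 0.000118), HBEGF at 1.02 and -0.60 (difference 1.62, adjusted p = 1.65e-05), and COL4A2 at -1.06 and 0.68 (difference -1.75, adjusted p = 1.52e-05). IGFBP6 fell in both, by 1.43 and 1.78, and its difference of 0.35 did not pass (SE 0.22, adjusted p = 0.303). MARK2 signal also differed between the lines, with a fall of 1.27 in H1693 and 2.35 in H1993 (adjusted p of the difference 0.00781); its part in these differences was not tested.

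**Figure D5:**
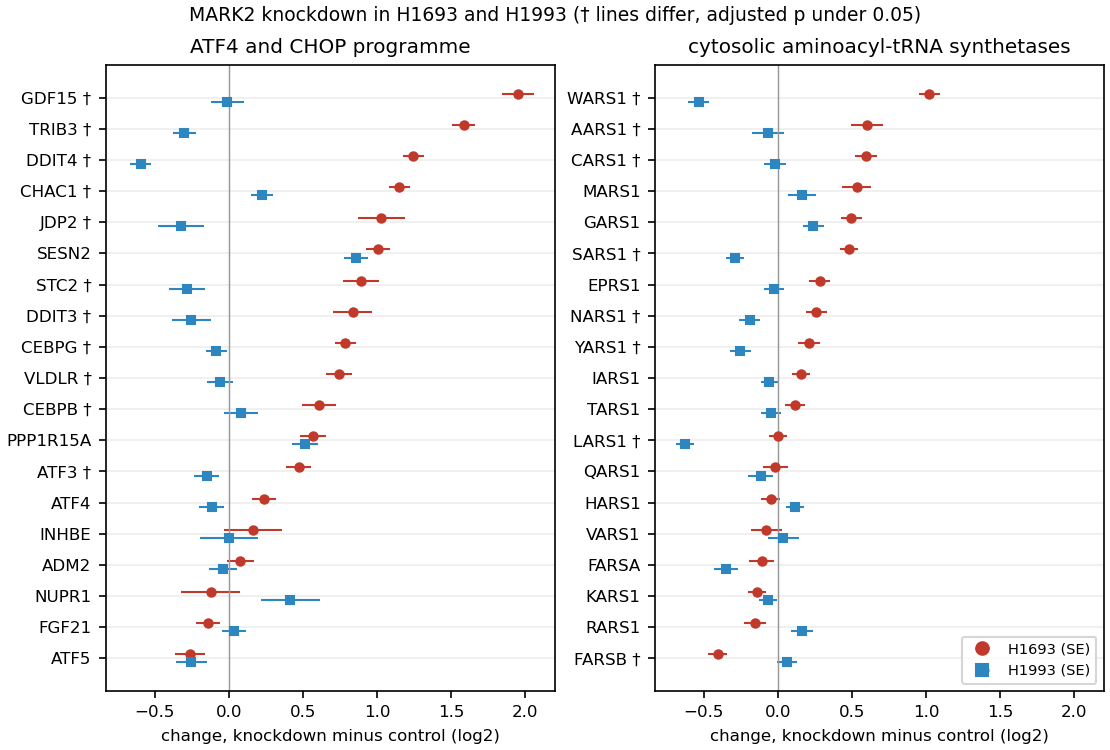
Change in H1693 (knockdown minus control, log2) beside the change in H1993 (x axis, log2, bars are SE) for genes of the ATF4 and CHOP programme (left) and the cytosolic tRNA synthetases (right), with a dagger where the change differs between the lines. TRIB3 lies at 1.58 in H1693 and -0.30 in H1993, and WARS1 at 1.02 and -0.53.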

How the data were processed

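Total RNA was labelled with biotin and hybridised to Affymetrix PrimeView arrays. The authors made the deposited log2 signals in Affymetrix Expression Console by RMA, according to the submitters' processing notes, and no software version is stated in the sources used here. RMA removes background and brings all arrays to 1 distribution, so a shift of all genes would not show, and it compresses dim signals. Of 49395 probe sets, 102 controls, 1832 with several symbols and 2473 with none were left out, and 44988 represented 18132 genes, named through the platform annotation and RefSeq (GRCh38.p14; 44961 matched a gene ID). Each gene took its brightest probe set over the 12 arrays, and 16205 genes with a log2 signal of 5 on at least 2 arrays were tested. limma 3.58.1 in R 4.3.3 fitted a mean for each of the 6 groups to 12 arrays. The knockdown contrast in H1693 and its difference from H1993 used two-sided moderated tests, Benjamini-Hochberg adjustment and a threshold of 0.05. The number of arrays limits the precision. The script was tested on simulated data.

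Replicate arrays of H1693 correlated at 0.998 and were not duplicates. The members, the gene lists and the rule for named genes were chosen with earlier results of these data known. The rule takes the MARK genes, the 15 largest rises and falls, up to 6 called members of each list and a short list of stress, cell cycle and secreted genes. Genes named outside it (ANAPC2, CDK6, CEBPG, EPCAM, FARSB, MAD1L1, MIS12, ORC2, ORC4, PCNA, PLK1, RPA2, SLC1A5, SLC7A2, STAG1, VIM and the markers that stayed below the floor) were chosen after their values were seen.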

Additional observations from a re-analysis of the deposited data

Results flagged for a closer look

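Of 33 genes whose change in H1693 was set against that in H1993, 30 differed in limma's test of the difference between the lines (adjusted over all 16205 genes, adjusted p from 3.63e-07 to 0.00958), against 22.1% of all genes tested. The genes were chosen with the changes in both lines known. Each difference below is the change in H1693 minus the change in H1993, in log2, and 20 were positive.

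Among stress genes, GDF15, TRIB3, DDIT4, CHAC1, DDIT3 and STC2 differed by 1.96, 1.88, 1.84, 0.93, 1.09 and 1.17. The amino acid enzymes ASNS, BCAT1, WARS1 and SHMT2 differed by 0.88, 1.06, 1.55 and 1.10, and the transporters SLC7A11, SLC7A5 and SLC3A2 by 1.24, 0.87 and 0.67. JUN and FOS differed by 1.98 and 1.16, and the chaperone HSPA1B by -0.68. The cell cycle genes CCNE2, CDC25A, MCM4 and FOXM1, more negative in H1693, differed by -1.17, -1.41, -0.97 and -0.45. Of the secreted factors, INHBB and HBEGF differed by 2.55 and 1.62, and FGFBP1, COL4A2 and NRG1 by -3.39, -1.75 and -0.69. Among the leading genes, MS4A15 and AMIGO2 differed by 3.20 and 2.62, and SERPINB7 and PDE4A, which rose in H1993, by -3.33 and -2.71. MARK2 itself differed by 1.08, since its signal fell by more in H1993. The other 3 genes, SESN2, PHGDH and IGFBP6, had differences of 0.15, 0.10 and 0.35 that did not pass.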

How the results depend on the processing

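Over 16 alternative settings (scaling, signal floor, choice of probe set, arrays in the fit, variance moderation, replicate block and leaving out each H1693 array), 194 of 232 named genes kept their call under every setting, and the ATF4 and CHOP list kept 13 to 15 rises and at most 1 fall. In H1693 5346 genes were called, against 6148 with the 4 H1693 arrays alone and 5614 after quantile normalisation. Leaving out 1 of the 4 arrays gave 1838 to 2124 rises over all genes, 24 to 30 stress falls, 6 to 9 amino acid falls and 5 to 8 cell cycle rises, each lowest count over 1.5 times under that with all arrays. These fits have fewer samples. With the probe set brightest in H1693, ABCC2 was at -0.18, CD68 at 0.077, KLK6 at -0.10 and LTBP1 at -0.044. Each had the opposite sign on the probe set used for the list counts, in which these genes are included. With the mean of a gene's probe sets EIF2S1 was at 0.088, against -0.53 in those counts. These settings read other probes.

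Nothing in the labels makes the replicate numbers pair the arrays. The replicate differences of the control and knockdown groups correlated across genes at -0.176 in H1693, 0.286 in H1993 and -0.105 in H1650. With the replicate number as a block 4845 genes were called, and 5631 with the numbers crossed, an alternative chosen after seeing the data. Signals under the log2 floor of 5 bound only loosely what a dim gene did, and 2 arrays a group limit every estimate.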

Other observations

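Probe sets of the same gene did not always move together in H1693. Of the genes called, 3973 had another probe set with a single symbol. In 2945 of these all other probe sets changed with the same sign, in 775 they had both signs, and in 253 all of them had the opposite sign. Among the 290 such genes called at 2-fold or more, the counts were 256, 30 and 4. FOSB, at 1.42 with another probe set at -0.09, is an example of the last kind.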
